A study of Mus musculus with 12 samples.

Results

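Cytochrome P450 genes were followed in mouse embryonic stem cells with and without an shRNA against Setdb1. The genes were taken by symbol, as every row of the gene table whose symbol starts with Cyp, a family number and a subfamily letter, with the sterol demethylase gene Cyp51 left out. This gave 97 of 26061 genes. No measured value entered this symbol rule, but the members were chosen with earlier results of these data known. The cells were E14, an established line of 129/Ola background, kept without feeders. They grew in LIF with serum, a state the submitters call primed, or in LIF with 2i medium, which holds the inhibitors PD0325901 and CHIR99021 and gives what they call the naïve state. All 4 groups were transduced with a lentiviral pLKO.1 vector, which carried a scrambled shRNA (shScr) in the serum control and the 2i control and the Setdb1 shRNA in the serum knockdown and the 2i knockdown. Puromycin at 1 µg/ml was started 48 h after infection and the cells were taken 3 days later, with 3 libraries of ribosomal-RNA-depleted RNA in each group. SETDB1 is a histone H3K9 methyltransferase. The labels do not say whether the replicates were separate cultures, so p-values measure the spread between these libraries only, and with 1 shRNA label against Setdb1, effects of that vector other than depletion cannot be told apart from depletion.

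P450 enzymes are heme proteins that use electrons from NADPH, passed on by P450 reductase or, in mitochondria, by ferredoxin, to insert an oxygen atom into a substrate. Families 1 to 3 oxidise drugs, pollutants, odorants and some steroids and are known mainly from liver, gut, lung and nose. Family 4 and subfamily 2j oxidise fatty acids and eicosanoids, and smaller families make or break down steroid hormones, bile acids, vitamin D and retinoic acid. Many of the genes of families 2 to 4 lie in tandem clusters of close copies and are best known from differentiated tissues.

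Levels are given as normalised reads, the reads of a gene recovered from the deposited values, each divided by its library's size factor. Setdb1 itself had 1587 to 2959 normalised reads in the serum control, 379 to 418 in the serum knockdown, 2253 to 3607 in the 2i control and 340 to 837 in the 2i knockdown. Libraries held 4821181 to 15509401 gene reads, with the lowest total in 2i knockdown replicate 3. Structural RNA and tRNA took 69.5% of the repeat reads in that library, 55.6% in 2i knockdown replicate 2 and 64.6% in 2i control replicate 3, against 15.6% to 48.3% in the other libraries. Where a P450 call in 2i was lost without these 3 libraries, this is stated beside it. For the other genes named below, whether a call held without these libraries was not examined. Leaving them out keeps 1 knockdown library of 2i, which is then assumed to vary like the other groups. The listed markers of embryonic stem cells were present in every group at a summed level of 42043 to 66543. All 12 were tested, and none passed in any comparison at an adjusted p under 0.05 by limma or voom (6 in serum and 2 in 2i had an unadjusted p under 0.05, all with a negative change). The changes were negative for 10 of the 12 in each medium, with a median log2 change of -0.45 in serum and -0.26 in 2i. Tbx3 in serum (-1.20, adjusted p = 0.539) and Klf4 in 2i (-1.10, adjusted p = 0.310) had the largest, and the part of these changes in the P450 results was not tested. Of 15 hepatocyte markers, Alb, Ttr and Serpina1a had no read in any library.

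The 250 bases before the annotated start are shown for the members on which the results turn, from RefSeq with build GRCm38.p6, and 73 of the 97 members had an entry. They were searched on both strands for 3 motifs. TATAAA is a TATA box. The core that the aryl hydrocarbon receptor binds was searched as GCGTG. A core site of nuclear receptors was searched as AGGTCA. No match of 1 motif overlapped a match of another in the windows shown. The opening pair is the genes of subfamily 2b with the most reads, and its capitals mark the stretches of at least 12 bases that both hold. AGGTCA lies within the longer of these stretches, 164 to 159 bases before the start of Cyp2b23 (chr7:26686431-26686680, minus strand) and 121 to 116 bases before that of Cyp2b19 (chr7:26756892-26757141, plus strand).
Cyp2b23: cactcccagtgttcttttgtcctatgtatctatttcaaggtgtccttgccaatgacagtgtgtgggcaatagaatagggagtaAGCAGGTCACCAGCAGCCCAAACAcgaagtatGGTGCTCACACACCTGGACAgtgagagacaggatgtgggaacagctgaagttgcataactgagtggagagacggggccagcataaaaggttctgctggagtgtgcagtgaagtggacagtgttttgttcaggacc
Cyp2b19: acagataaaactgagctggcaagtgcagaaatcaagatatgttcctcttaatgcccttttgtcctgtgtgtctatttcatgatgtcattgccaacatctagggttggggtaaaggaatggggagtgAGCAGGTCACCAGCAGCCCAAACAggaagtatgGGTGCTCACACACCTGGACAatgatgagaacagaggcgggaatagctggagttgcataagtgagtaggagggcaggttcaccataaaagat
In the next 4, the other members that passed the test and had an entry, capitals mark a motif. TATAAA stood 39 to 34 bases before the start of Cyp2a12 (chr7:27028840-27029089, plus strand), 29 to 24 before that of Cyp2c55 (chr19:39006769-39007018, plus strand) and 30 to 25 before that of Cyp1a1 (chr9:57697363-57697612, plus strand). Cyp1a1 also held GCGTG 54 to 50 bases before its start. None of the 3 motifs was found in the window of Cyp2r1 (chr7:114562973-114563222, minus strand).
Cyp2a12: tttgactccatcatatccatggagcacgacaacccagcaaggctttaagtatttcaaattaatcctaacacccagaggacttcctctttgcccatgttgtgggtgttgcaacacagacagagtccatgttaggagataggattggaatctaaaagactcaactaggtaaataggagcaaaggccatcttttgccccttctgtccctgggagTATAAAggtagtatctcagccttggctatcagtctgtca
Cyp2c55: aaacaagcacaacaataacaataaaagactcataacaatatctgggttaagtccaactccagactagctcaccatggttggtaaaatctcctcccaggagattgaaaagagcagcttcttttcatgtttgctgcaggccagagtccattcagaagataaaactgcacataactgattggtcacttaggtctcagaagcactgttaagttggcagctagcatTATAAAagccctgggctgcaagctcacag
Cyp1a1: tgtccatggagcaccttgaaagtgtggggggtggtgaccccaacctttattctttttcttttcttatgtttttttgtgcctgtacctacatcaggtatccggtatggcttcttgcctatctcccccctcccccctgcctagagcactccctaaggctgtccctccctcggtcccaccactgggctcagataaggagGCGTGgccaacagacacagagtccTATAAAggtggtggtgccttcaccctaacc
Cyp2r1: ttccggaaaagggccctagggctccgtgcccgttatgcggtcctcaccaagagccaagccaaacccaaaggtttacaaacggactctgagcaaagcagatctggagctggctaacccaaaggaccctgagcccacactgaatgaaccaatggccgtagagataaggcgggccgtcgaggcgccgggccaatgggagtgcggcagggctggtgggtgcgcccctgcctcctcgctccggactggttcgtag
Over the 83 windows of members in the RefSeq table, the TATA box letters were held by 36.1%, the aryl hydrocarbon receptor core by 19.3% and the nuclear receptor core by 21.7%. Over all 32851 windows of the same length the shares were 12.4%, 28.2% and 14.0%. These matches are descriptions of letters and say nothing on binding.

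Reads were found for 70 of the 97 members. The other 27 had none in any library (27.8%, against 22.2% of all genes), among them Cyp11b1 and Cyp11b2 of corticosteroid synthesis, Cyp8b1 of bile acid synthesis and 7 of the 9 members each of subfamilies 2d and 3a. Controls had reads for 22, 30 and 26 members in serum and 27, 33 and 25 in 2i, and knockdown libraries for 38, 38 and 45 in serum and 49, 42 and 31 in 2i. In serum every knockdown library held more members than any control, and in 2i the groups overlapped. The lowest 2i knockdown count came from the library with the fewest reads of all. Serum knockdown libraries held 11559278 to 15033758 gene reads, against 9900012 to 13013715 in the serum control. The same counts were not made over all genes, and the part of depth in them, or in the cluster counts below, was not tested. With 97 genes and so few reads each, a member with no read may still be expressed below this depth.

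**Figure D1:**
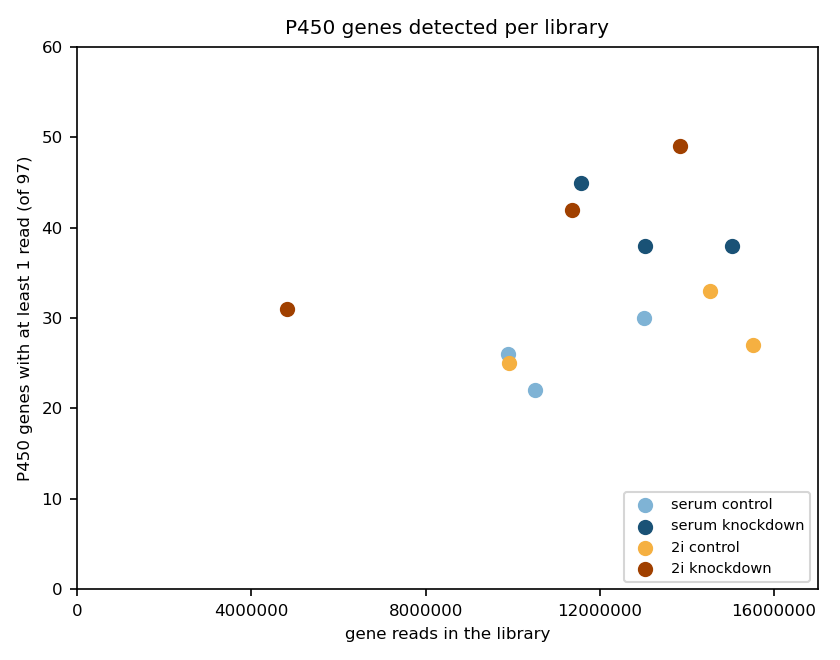
Number of the 97 P450 genes with at least 1 read in each of the 12 libraries (vertical axis) against the gene reads of the library (horizontal axis), coloured by group. Serum knockdown libraries lie at 38 to 45 genes and serum controls at 22 to 30, and the 2i knockdown library with 4821181 reads still held 31.

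Members that were silent in all 6 control libraries and had a read in a knockdown library numbered 21 of 97, against 6.32% of all genes. For 8 of them the knockdown reads came from both media, against 1.63% of all genes: Cyp4a12b with 242 knockdown reads in all, Cyp4a12a with 52, Cyp2b10 with 41, Cyp2t4 with 40, Cyp2j5 with 27, Cyp2c66 with 17, Cyp21a1 with 8 and Cyp2b13 with 2. Several of the 21 rest on very few reads, with Cyp3a41b, Cyp4f18, Cyp2d26, Cyp2c54 and Cyp2c50 at 1 knockdown read in all. The shares over all genes include genes with control reads, which cannot be silent in the controls. In the other direction 3 members, Cyp4a14, Cyp26c1 and Cyp17a1, had control reads and no knockdown read, against 3% of all genes, and each had 1 read. No member had control reads in both media and none in the knockdowns, against 0.391% of all genes. Over all members with reads in a medium, 41 of 60 had the higher mean in the serum knockdown (68.3%, against 51.6% of all genes with reads) and 51 of 58 in the 2i knockdown (87.9%, against 55.7%).

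For each 1000000 gene reads, P450 genes took 77.1, 87.3 and 82.5 reads in the serum control against 239.9, 257 and 212 in the serum knockdown. In 2i they took 114, 147 and 113 in the control against 313, 271 and 526 in the knockdown, with no overlap of the groups in either medium. Cyp2b23 took 29.6% to 52.3% of all P450 reads in the serum knockdown and 0.122% to 2.99% in the serum control. Without Cyp2b23 the values were 76.9, 84.7 and 82.4 against 114, 127 and 149 in serum and 109.5, 139 and 111 against 198, 233 and 478 in 2i, still without overlap. In bulk RNA, more cells with a transcript and more transcript per cell cannot be told apart, here or in any value that follows.

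The test was run on 30 members whose mean passed a floor on low values, and since a gene can pass that floor through its high group alone, counts over the 30 are given as descriptions. In serum 1 member passed at an adjusted p under 0.05 (limma, adjusted over 14487 genes), and it was higher in the knockdown, against 0.601% of all tested genes called higher, 0.0483% lower and 0.649% in either direction. With the replicate number as a block within each medium the serum count was 2, adding Cyp2c55 at adjusted p = 0.0366. In 2i 5 members passed, all higher in the knockdown (Cyp2b23, Cyp2a12, Cyp2c55, Cyp4a12b and Cyp2r1), against 1.21% of all tested genes called higher, 0.0552% lower and 1.27% in either direction. This count fell to 2, Cyp2a12 and Cyp2b23, without the 3 libraries rich in structural RNA, without 2i control replicate 1 and without 2i control replicate 2, and to 3 without 2i control replicate 3. No member was called lower in either medium, by limma or by voom, and none had a negative change at an unadjusted p under 0.05. Of the 30, 9 were higher in every serum knockdown library than in any serum control (6.12% of all tested genes) and 11 in 2i (6.33%), and none was lower in the same way (3.59% and 4.33%). Changes were positive for 18 of the 30 in serum (49.6% of all tested genes) and 28 in 2i (51.2%). The median log2 change was 0.20 in serum and 0.62 in 2i, against -0.0015 and 0.01 for all tested genes.

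The largest change in serum was that of Cyp2b23. It belongs to subfamily 2b, whose best known member Cyp2b10 is the standard target of the receptor CAR in liver. In serum Cyp2b23 had 2.17, 30.2 and 1.07 in control replicates 1 to 3 and 1435, 1427 and 696 in the knockdown (normalised reads). In 2i the values were 44.8, 82.8 and 18.8 in control replicates 1 to 3 and 1217, 439 and 644 in the knockdown. The groups lay far apart in both media, and in serum only control replicate 2 had more than 2 reads. The change passed the test in serum (log2 change 4.95, SE 0.46, adjusted p = 2.23e-05, 106-fold) and in 2i (log2 change 3.19, SE 0.46, adjusted p = 0.00132, 15.7-fold), and it passed in both media under all 22 alternatives run. The fold depends on single control libraries. Without serum control replicate 2 only 3 control reads were left, and the ratio was 752 with a 95% counting interval of 257 to 3647. In 2i it was 24.1-fold without control replicate 2. The difference of the changes between the media did not pass (log2 change -1.75, SE 0.65, adjusted p = 1.00).

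Cyp2b19, which in skin oxidises arachidonic acid, is the next member after Cyp2b23 in the gene order. It had 0, 0 and 0 in control replicates 1 to 3 and 25.9, 32.8 and 13.4 in the knockdown in serum and 0, 4.14 and 0 in control replicates 1 to 3 and 20.8, 3.05 and 22.1 in the knockdown in 2i. In serum the groups were separate, with at least 23.9-fold more in the knockdown, but the adjusted p was 0.0711. In 2i the groups overlapped (11.1-fold, 7.40 without 2i control replicate 1 or 3, adjusted p = 0.410). Of the 50-base stretches of Cyp2b23 and Cyp2b19, 4.44% and 1.68% occur in another P450 transcript. Sharing with genes outside the P450 family or with repeats was not examined. The remaining 2b genes were low. Cyp2b10 had 15.2 normalised reads in serum knockdown replicate 1 and 9.22 and 9.14 in 2i knockdown replicates 1 and 2, and no read in the other 9 libraries. Cyp2b13 had 1 read in each of 2 knockdown libraries and Cyp2b9 none in any. The promoter window of Cyp2b23 shares 72.0% of its bases with that of Cyp2b10 and 69.6% with those of Cyp2b13 and Cyp2b9. With that of Cyp2b19 it shares 65.6%, the lowest of the 4. These shares depend on where the starts are annotated. The AGGTCA that both windows hold lies 164 to 159 bases before the start of Cyp2b23 and 121 to 116 before that of Cyp2b19. The part of this offset in the lower share was not tested.

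Subfamilies 2a and 2b share a cluster of 13 members on chromosome 7, with Cyp2s1 at one end and Cyp2f2 and Cyp2t4 at the other. Cyp2a12, which hydroxylates steroids in liver, had 0, 0 and 0 in control replicates 1 to 3 and 10.6, 5.90 and 14.4 in the knockdown in serum and 0.722, 0 and 0 in control replicates 1 to 3 and 108, 45.7 and 74.7 in the knockdown in 2i. Every knockdown library was above every control. The rise passed the test in 2i (log2 change 2.27, SE 0.30, adjusted p = 0.000618) and not in serum (adjusted p = 0.358, at least 10.2-fold). Without the libraries rich in structural RNA only 2i knockdown replicate 1 was left, at 108 against 0.722 and 0 in 2i control replicates 1 and 2. Against the single control read in 2i the ratio was 297, with a counting interval of 52.7 to 11769, and without 2i control replicate 1 it was at least 58.5-fold. The difference of the changes was 1.32 on the log2 scale (adjusted p = 1.00). Cyp2a12 shares 20.1% of its 50-base stretches with Cyp2a22, which had 3.07 and 1.02 normalised reads in 2i knockdown replicates 1 and 2 and none elsewhere, although their promoter windows are 86.4% identical.

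The pair Cyp2a4 and Cyp2a5, a steroid hydroxylase and a coumarin hydroxylase with promoter windows 98.0% identical, did not share this pattern. Their highest values, 23.5 and 12.9 normalised reads, stood in 2i control replicate 3, with at most 4.79 in any knockdown library. Cyp2t4 had 5.32, 6.74 and 0 in the serum knockdown, 4.61, 7.11 and 33.2 in the 2i knockdown and no control read, which gave at least 3.997-fold and at least 18.4-fold, the latter at least 7.20-fold without 2i knockdown replicate 3. Cyp2f2, a lung enzyme, had 5.08 normalised reads in 2i knockdown replicate 2 only, and Cyp2g1, from the olfactory lining, had none. At the other end Cyp2s1, expressed in many epithelia, had reads in all 12 libraries and changed little (125, 38.2 and 36.4 in the serum control, 90.5, 26.1 and 72.9 in the serum knockdown, 38.997, 75.9 and 52.8 in the 2i control, 96.8, 70.1 and 82.96 in the 2i knockdown). Counted by reads in a group, 2 of the 13 were detected in the serum control, 9 in the serum knockdown, 6 in the 2i control and 10 in the 2i knockdown.

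Of the other genes within and beside the chromosome 7 cluster, 6 were tested and none passed. Hnrnpul1 and Axl before it and Egln2 and Rab4b after it had log2 changes of 0.23, 0.61, -0.04 and -0.20 in serum and -0.58, -0.16, 0.36 and 0.25 in 2i. Between the P450 genes, Nlrp4a, an oocyte gene of the NLRP family, had 171, 257 and 68.1 normalised reads in the 2i control against 248, 309.6 and 564 in the 2i knockdown (log2 change 1.06, adjusted p = 0.429), and Nlrp9a, too low to be tested, had no read in the serum control against 6.08, 5.90 and 0.959 in the serum knockdown.

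**Figure D2:**
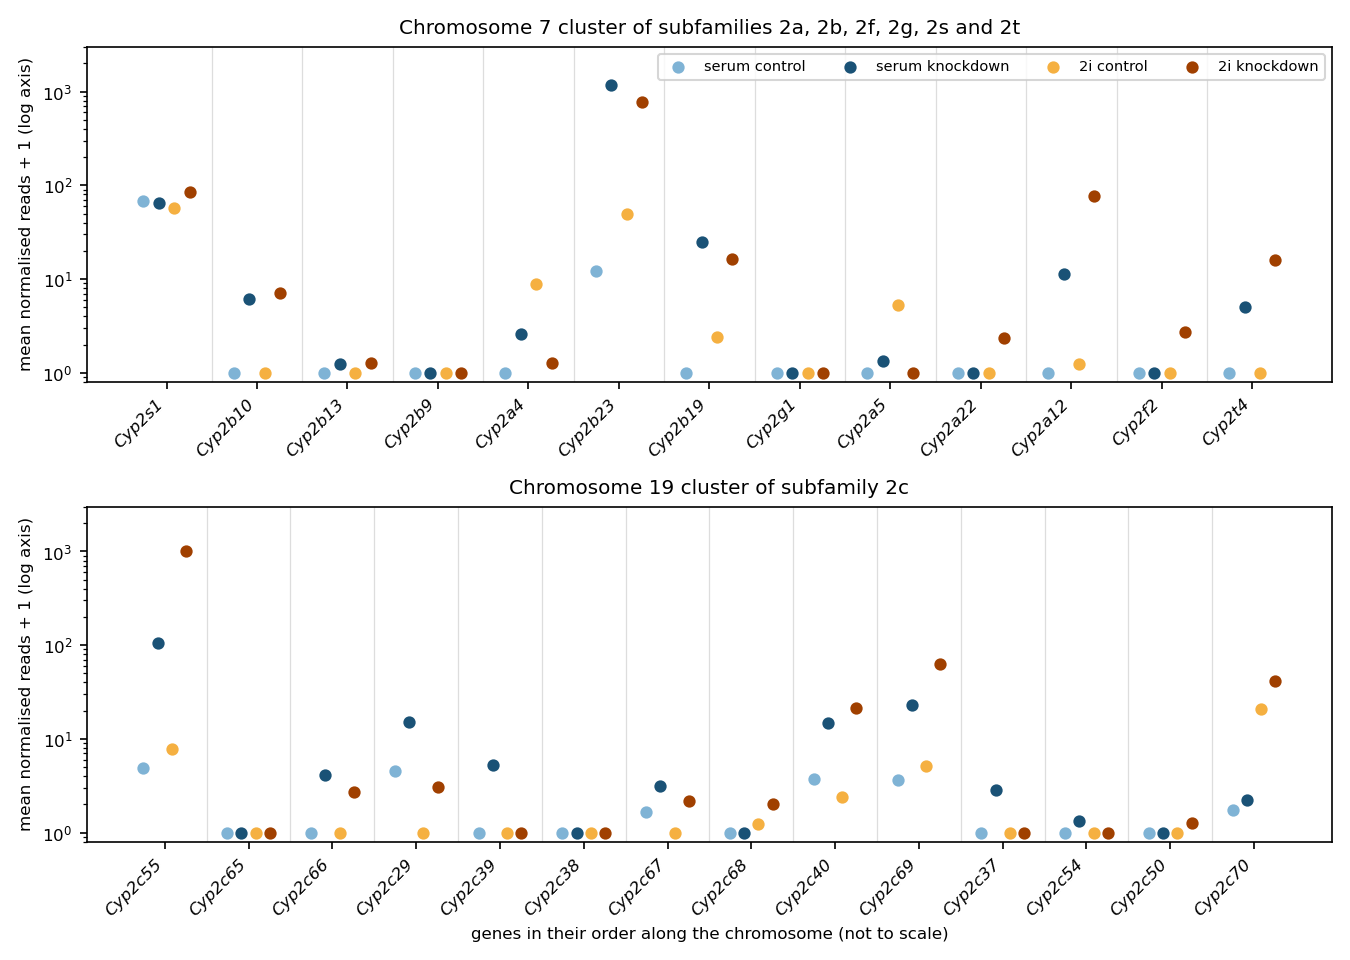
Mean normalised reads plus 1 (log axis) of every member of the chromosome 7 cluster (top) and the chromosome 19 cluster (bottom), with genes in their order along the chromosome and 1 point for each of the 4 groups (mean of 3 libraries). Knockdown points stand above the control points at Cyp2b23, Cyp2b19 and Cyp2a12 in the upper panel and at Cyp2c55, Cyp2c40 and Cyp2c69 in the lower, while Cyp2s1 lies at 55.9 to 83.3 in all groups and Cyp2c70 at 19.999 and 40.2 in the 2i groups.

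Subfamily 2c oxidises drugs and arachidonic acid in liver, kidney and gut, and 14 of its 15 members form a cluster on chromosome 19. Cyp2c55, at one end of it, had 0, 11.5 and 0 in control replicates 1 to 3 and 63.1, 105 and 144 in the knockdown in serum and 2.17, 7.59 and 10.6 in control replicates 1 to 3 and 151, 211 and 2638 in the knockdown in 2i. No knockdown library reached down to a control, but 2i knockdown replicate 3 stood far above the other two. The fold in 2i was 148 with that library and 26.8 without it (log2 change 3.78, SE 0.71, adjusted p = 0.0123 with all libraries). The 2i call was lost without 2i control replicate 1 (adjusted p = 0.0666), without 2i control replicate 2 (0.0505), without the 3 libraries rich in structural RNA (0.0846), with only the 2i libraries in the fit (0.129) and with voom on the recovered reads (0.174). In serum the fold was 27.03, at least 64.4 without serum control replicate 2 and 18.02 without serum control replicate 1 or 3. The serum change did not pass over all libraries (log2 change 2.34, SE 0.71, adjusted p = 0.321) and passed without 2i knockdown replicate 3 (adjusted p = 0.00517) and without the 3 libraries rich in structural RNA (0.00717).

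Within the cluster Cyp2c40 and Cyp2c69 also had higher values in the knockdowns, without passing the test. Cyp2c69 had 0, 7.995 and 0 in control replicates 1 to 3 and 29.7, 23.6 and 13.4 in the knockdown in serum (8.34-fold, adjusted p = 0.699) and 2.89, 8.28 and 1.17 in control replicates 1 to 3 and 29.2, 23.4 and 136 in the knockdown in 2i (15.2-fold, adjusted p = 0.158). The 2i fold of Cyp2c69 was 6.39 without 2i knockdown replicate 3 and 30.9 without 2i control replicate 2, and the serum fold was at least 13.8 without serum control replicate 2 and 5.56 without serum control replicate 1 or 3. Cyp2c40 had 0, 7.11 and 1.07 in control replicates 1 to 3 and 9.89, 15.2 and 16.3 in the knockdown in serum (5.06-fold) and 0, 0.690 and 3.52 in control replicates 1 to 3 and 25.4, 19.3 and 16.6 in the knockdown in 2i (14.5-fold), with adjusted p values of 0.834 and 0.157. The serum fold of Cyp2c40 was 3.37 without serum control replicate 1, and without serum control replicate 2, which left 1 control read, the ratio was 25.1 (counting interval 4.30 to 1013). In 2i it was 9.70 without 2i control replicate 1 and 62.1 (counting interval 10.7 to 2494) without 2i control replicate 3. For both genes, each knockdown library was above each control of its medium. These 2 genes and Cyp2c67 share 60.3%, 54.3% and 52.8% of their 50-base stretches with other members, so how their reads were divided is uncertain.

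Cyp2c70, which makes the muricholic bile acids of mice, stood apart by medium. It had 2.17, 0 and 0 in the serum control against 23.8, 10.3 and 25.8 in the 2i control, and 0.761, 0 and 2.88 and 44.6, 23.4 and 52.5 in the knockdowns. The 2i control lay above the serum control in every library, at a ratio of 28.3 (counting interval 7.55 to 238, 2 reads in the serum control). The adjusted p of this difference was 0.0532 and missed the threshold, but the difference passed under 7 of 21 alternatives. Cyp2c29 had 1.52, 26.9 and 14.4 in the serum knockdown, 0, 0 and 10.7 in the serum control, 6.15, 0 and 0 in the 2i knockdown and no read in the 2i control. Cyp2c39 appeared in serum knockdown replicate 2 alone with 12.6, Cyp2c66 in 3 knockdown libraries with at most 9.26, and Cyp2c67, Cyp2c68, Cyp2c37, Cyp2c54 and Cyp2c50 with at most 4.79 in any library, while Cyp2c38 and Cyp2c65 had no read. In all, 6 of the 14 were detected in the serum control, 10 in the serum knockdown, 5 in the 2i control and 9 in the 2i knockdown. Tbc1d12 and Hells before the cluster and Pdlim1 after it did not pass the test in either medium (log2 changes -0.26, 0.27 and 0.79 in serum and -0.48, -0.10 and 0.09 in 2i).

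**Figure D3:**
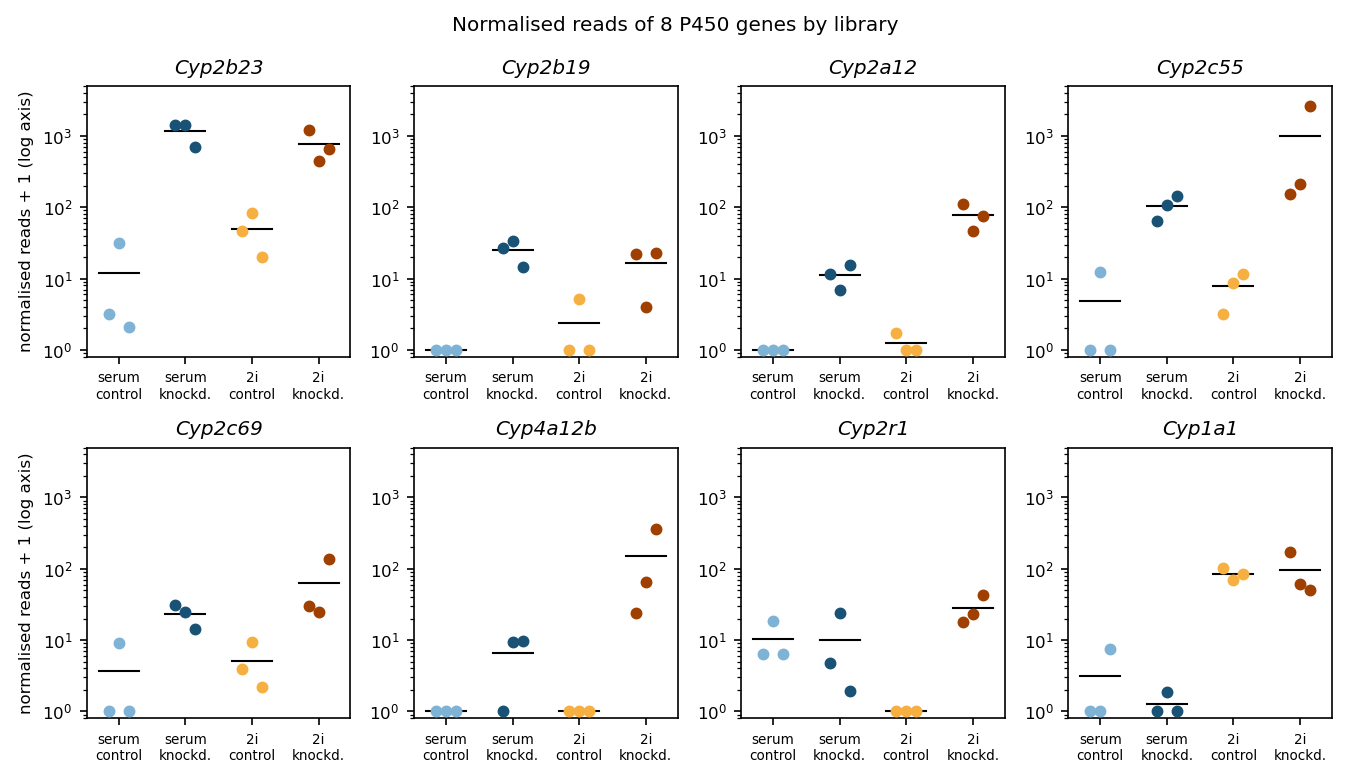
Normalised reads plus 1 (log axis) of 8 P450 genes in each of the 12 libraries, with 1 point per library in the order of replicates 1 to 3 and a bar at the group mean. Knockdown points lie above control points of the same medium for Cyp2b23, Cyp2a12, Cyp2c55 and Cyp2c69, Cyp2r1 is at 0 in the 2i control only, and Cyp1a1 follows the medium.

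Family 1 holds the classical targets of the aryl hydrocarbon receptor, and Cyp1a1 differed between the media. It had 0, 0 and 6.42 in the serum control against 100.4, 68.96 and 82.2 in the 2i control, and 0, 0.842 and 0 and 171, 59.9 and 49.8 in the knockdowns. Its reads were almost confined to 2i, with 1 serum control and 1 serum knockdown library above 0. It was the only member that passed in the comparison of 2i with serum in control cells (log2 change 2.23, SE 0.37, adjusted p = 0.00413, 39.2-fold), against 1.73% of all tested genes called higher, 1.88% lower and 3.62% in either direction. The fold was 26.1 without serum control replicate 1 or 2 and at least 57.2 without serum control replicate 3, and the gene was left out by a stricter filter. In 2i the knockdown change was -0.0033 on the log2 scale with an SE of 0.37, and its sign turned under 5 alternatives. Cyp1a2, beside it on chromosome 9, had no read in serum, 0, 4.14 and 0 in the 2i control against 6.92, 4.06 and 49.8 in the 2i knockdown. Cyp1b1, on another chromosome, was carried by single libraries, with 0, 22.2 and 0 in the serum control, 17.5, 0 and 0 in the serum knockdown, 36.8, 0.690 and 0 in the 2i control against 187, 4.06 and 0 in the 2i knockdown. Replicate 1 was the highest in both 2i groups.

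None of the remaining genes of families 2 and 3 that act on xenobiotics passed the test. Cyp2e1, which oxidises ethanol, had 3.04 to 18.7 normalised reads in serum and 1.38 to 16.2 in 2i, with overlapping groups. Cyp3a13 was the only member of subfamily 3a with more than 1 read, at most 11.1, and of the 9 members of subfamily 2d only Cyp2d22 and Cyp2d26 had any, at most 15.3 and 0.959. Cyp2d22, too low to be tested, had no read in the serum control against 2.28, 4.21 and 15.3 in its knockdown, at least 7.23-fold more, or at least 3.23-fold without serum knockdown replicate 3. Summed over the 49 members of this role, normalised reads were 58.3 ± 43.95 in the serum control, 1433 ± 396 in the serum knockdown, 203 ± 13.6 in the 2i control against 2218 ± 1442 in the 2i knockdown (mean ± SD, n = 3), and the sums of the groups did not overlap within a medium. Cyp2b23 and Cyp2c55 made up most of the knockdown sums.

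Among the 26 members that oxidise fatty acids, subfamily 2j had a higher sum in each knockdown library than in any control of its medium, and no single gene of it passed. The summed normalised reads of its 8 members were 78.2, 108 and 63.1 in the serum control against 229.7, 273 and 254 in the serum knockdown, and 128, 114 and 92.7 in the 2i control against 232, 322 and 393 in the 2i knockdown. Cyp2j13 had 15.2, 7.11 and 12.8 in control replicates 1 to 3 and 97.4, 109 and 28.8 in the knockdown in serum (6.71-fold, adjusted p = 0.194) and 1.44, 2.07 and 0 in control replicates 1 to 3 and 20.8, 19.3 and 5.53 in the knockdown in 2i (12.97-fold, 8.65 without 2i control replicate 3, adjusted p = 0.560). It was separate in both media and 10.001-fold lower in the 2i control than in the serum control (adjusted p = 0.296). Cyp2j6, an arachidonic acid epoxygenase, had 61.9, 49.7 and 23.5 in control replicates 1 to 3 and 74.5, 91.8 and 133 in the knockdown in serum and 98.2, 80.7 and 88.03 in control replicates 1 to 3 and 156, 188 and 335 in the knockdown in 2i, 2.22-fold and 2.54-fold higher, with adjusted p values of 0.890 and 0.318. Cyp2j9 was 2.66-fold and 3.33-fold higher (adjusted p = 0.905 and 0.634), with overlap in serum, where the fold was 5.05 without serum control replicate 2. Cyp2j5, the main renal form, had 9.13 normalised reads in serum knockdown replicate 1, 11.5 in 2i knockdown replicate 1 and none elsewhere.

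The enzymes of subfamily 4a hydroxylate the end of fatty acid chains, and the pair Cyp4a12a and Cyp4a12b was read only in knockdown libraries. Cyp4a12b had 0, 8.42 and 8.63 in the serum knockdown against 23.1, 64.98 and 357 in the 2i knockdown. It passed in 2i at at least 182-fold (log2 change 2.62, SE 0.52, adjusted p = 0.0166) and not in serum (at least 5.65-fold, adjusted p = 1.00). Without 2i knockdown replicate 3, the highest library, the bound was 54.1-fold. The call was lost without 2i control replicate 1, 2 or 3 (adjusted p = 0.0722, 0.0721 and 0.0583), without the 3 libraries rich in structural RNA (0.431), with only the 2i libraries in the fit (0.148) and with voom (0.0508). Cyp4a12a had 0, 5.05 and 0.959 and 0.769, 27.4 and 47.01 in the same groups, at least 30.8-fold in 2i (17.3 without 2i knockdown replicate 3), and did not pass the floor for testing. The transcripts share 49.4% of the 50-base stretches of Cyp4a12b, so the division of reads between them is uncertain. Cyp4a10 and Cyp4a14 had at most 1.54 normalised reads in any library, and Cyp4a31, Cyp4a32 and the neighbour Cyp4b1 had none.

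Subfamily 4f, which ends the action of leukotrienes and oxidises very long fatty acids, behaved differently. All 8 members had reads, and summed normalised reads were 201, 214 and 355 in the serum control, 232, 180.2 and 244 in the serum knockdown, 278, 309 and 352 in the 2i control against 279.8, 480.2 and 465 in the 2i knockdown, with overlap in both media. Of its 5 tested members 1 had a positive change in serum and 5 in 2i, and none passed. Cyp4f16 had 107, 115 and 136 in control replicates 1 to 3 and 142, 85.1 and 118 in the knockdown in serum and 129.99, 138 and 165 in control replicates 1 to 3 and 114, 225 and 133 in the knockdown in 2i. Cyp4f14, which inactivates leukotriene B4, had the largest negative change of the tested members in serum (24.97, 17.8 and 0 against 7.61, 0 and 0, 5.62-fold lower, adjusted p = 1.00), with overlapping groups. That fold was 3.50 without serum control replicate 1, 8.43 without serum control replicate 3 and at least 10.6 without serum knockdown replicate 1. Cyp4f17 lay higher in every 2i control than in any serum control (54.2, 46.2 and 90.4 against 22.8, 16.9 and 38.5, 2.44-fold, adjusted p = 0.299). Cyp4x1, a brain form, had 9.77, 36.4 and 13.9 in the serum control against 3.04, 16.8 and 11.5 in the serum knockdown, and Cyp2u1 had 13.7, 1.38 and 8.22 in the 2i control against 0.769, 16.2 and 0 in the 2i knockdown. Their changes were the next largest negative one in serum and the largest in 2i (-0.34 and -0.29 on the log2 scale), and neither passed.

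The vitamin D enzymes were low throughout. Cyp2r1, the main 25-hydroxylase of vitamin D, had 5.43, 17.8 and 5.35 in control replicates 1 to 3 and 3.80, 22.7 and 0.959 in the knockdown in serum and 0, 0 and 0 in control replicates 1 to 3 and 16.9, 22.3 and 41.5 in the knockdown in 2i. It was at 0 in the 2i control and in no other group. In 2i it passed (log2 change 1.496, SE 0.34, adjusted p = 0.0404, at least 33.1-fold higher in the knockdown), and in serum the groups overlapped (-0.12 on the log2 scale, adjusted p = 1.00). The 2i call was lost under 13 of 21 alternatives. Among these were leaving out 2i control replicate 1, 2 or 3 (adjusted p = 0.159, 0.153 and 0.130), 2i knockdown replicate 2 or 3 (0.0905 and 0.177), serum control replicate 1, 2 or 3 (0.0551, 0.0507 and 0.0503), serum knockdown replicate 1 (0.0581) and the 3 libraries rich in structural RNA (0.799). The difference between the media was 1.62 (SE 0.48, adjusted p = 1.00), and the 2i control was at least 11.7-fold below the serum control (adjusted p = 0.173). Of its 4 nearest protein-coding neighbours on chromosome 7, Calca passed as lower in the 2i control. It had 84.7, 105 and 274 normalised reads in the serum control against 37.6, 26.2 and 0 in the 2i control (log2 change -1.94, adjusted p = 0.0366). Pde3b had 137, 122 and 253 against 52.0, 77.9 and 16.4 (log2 change -1.33, adjusted p = 0.0835), Psma1 had means of 2470 and 2890 (log2 change 0.17, adjusted p = 0.887), and Calcb had no read. Cyp27b1, which makes the active hormone, had at most 7.94 normalised reads in any library, and Cyp24a1, which breaks it down, at most 1.92.

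Enzymes of steroid hormones and retinoic acid had few reads. Cyp11a1, which starts steroid synthesis from cholesterol, had 0, 0 and 24.6 in control replicates 1 to 3 and 14.5, 14.3 and 43.1 in the knockdown in serum and 0, 3.45 and 0 in control replicates 1 to 3 and 2.31, 7.11 and 0 in the knockdown in 2i, overlapping in both. Of the others, Cyp21a1, Cyp19a1 and Cyp17a1 had at most 2.88, 1.92 and 0.722 normalised reads in any library. Cyp26a1, a retinoic acid hydroxylase and direct target of the retinoic acid receptors, was read in serum only (6.51, 4.44 and 0 in the control against 0, 0 and 2.88 in the knockdown). Cyp26b1 had 35.9 in 2i knockdown replicate 3 and at most 2.17 in the rest.

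Enzymes of cholesterol and bile acid conversion were more often present. Cyp7b1, which hydroxylates oxysterols, had 27.1, 39.98 and 0 in control replicates 1 to 3 and 31.2, 18.5 and 36.4 in the knockdown in serum and 42.6, 110.3 and 26.99 in control replicates 1 to 3 and 72.2, 219 and 171 in the knockdown in 2i (2.57-fold, 4.43 without 2i control replicate 2, adjusted p = 0.700), with overlap. Cyp27a1, the mitochondrial sterol 27-hydroxylase, ranged from 0 to 51.8 and was highest in replicate 2 of both 2i groups (42.1 and 51.8). Cyp39a1, which acts on 24-hydroxycholesterol, had 8.45 to 88.3 over all libraries, also with both 2i maxima in replicate 2. Cyp46a1 and Cyp7a1 had at most 2.03 normalised reads in any library.

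Per length, the most abundant P450 gene in both controls was Cyp20a1, an enzyme whose substrate is little known, with means of 149 normalised reads per kb of exon in the serum control and 222 in the 2i control. By group means in the knockdowns another gene stood above it, Cyp2b23 in serum (542 against 231 per kb) and Cyp2c55 in 2i (501 against 427 per kb). The place of Cyp2c55 above Cyp20a1 in 2i rested on knockdown replicate 3, the library with the fewest reads. Cyp2c55 had 151, 211 and 2638 normalised reads in 2i knockdown replicates 1 to 3, and Cyp20a1 had 562, 824 and 1543. Cyp2b23, with a 2i knockdown mean of 350 per kb, had 1217, 439 and 644 and stood above Cyp20a1 in replicate 1. Over all libraries Cyp20a1 had a mean of 257 per kb. Cyp2b23 followed with 229.8 and Cyp2c55 with 139.7, both set mostly by the knockdown libraries, and then Cyp4f16 with 43.7, Cyp2j6 with 31.9, Cyp7b1 with 30.6, Cyp1a1 and Cyp4a12b with 16.1 each, Cyp4f39 with 15.3 and Cyp4f13 with 15.1. Cyp20a1 had 371, 402 and 246 in control replicates 1 to 3 and 478, 504 and 605 in the knockdown in serum and 516, 523 and 481 in control replicates 1 to 3 and 562, 824 and 1543 in the knockdown in 2i. Each knockdown library was above each control of its medium, at 1.56-fold and 1.93-fold, with adjusted p values of 1.00 and 0.572. Cyp2ab1, also little studied, had 45.8 in 2i control replicate 3 and at most 6.51 elsewhere, and Cyp2w1 had no read.

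Set side by side, the 2 knockdown changes came from separate control and knockdown libraries. On the deposited log2 scale, which understates changes of low genes, both media gave Cyp2b23 and Cyp2c55 the largest changes, in opposite order, at 4.95 and 2.34 in serum and 3.19 and 3.78 in 2i. Cyp2b19 and Cyp2j13 came next in serum (1.42 and 1.31) and Cyp4a12b and Cyp2a12 in 2i (2.62 and 2.27). By normalised reads the order in 2i was another, with Cyp2b23 (15.7-fold) below Cyp2a12 (ratio 297), Cyp4a12b (at least 182-fold) and Cyp2c55 (148-fold, or 26.8 without 2i knockdown replicate 3). The direct test of the difference of the changes called no member and 0% of all tested genes (limma, adjusted p under 0.05), and voom called no member, so none of these changes was shown to depend on the medium. At an unadjusted p under 0.05 it gave 4 members, with Cyp2r1, Cyp2a12 and Cyp4a12b toward 2i and Cyp2b23 toward serum.

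**Figure D4:**
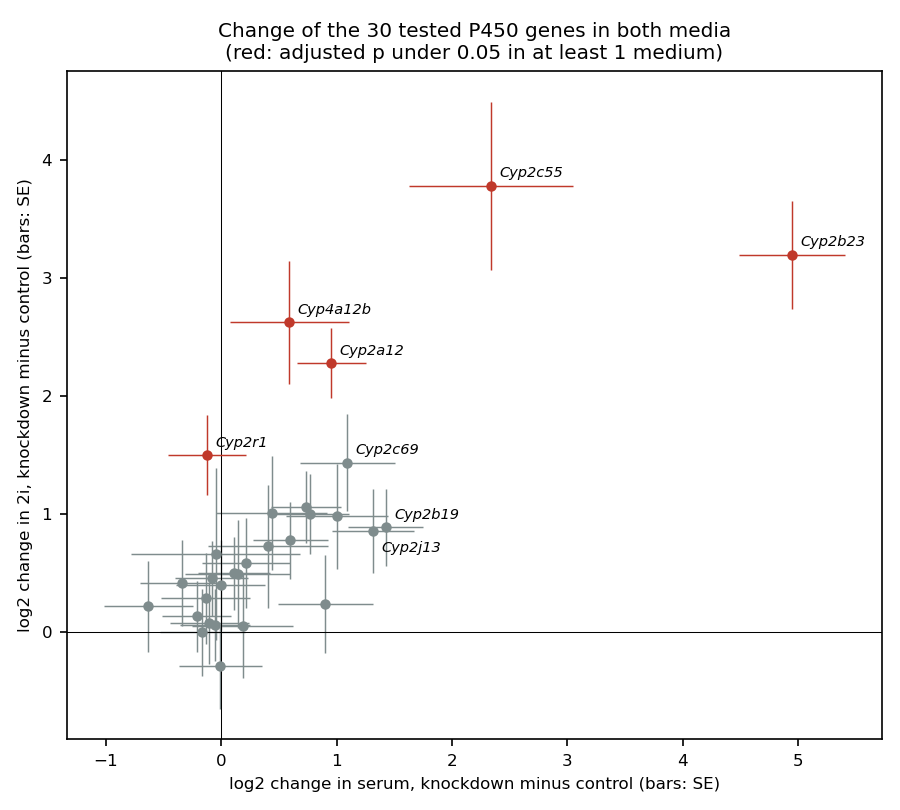
Log2 change, knockdown minus control, of the 30 tested P450 genes in serum (horizontal axis) and in 2i (vertical axis), with SE bars from limma and genes that passed in at least 1 medium in red. Cyp2b23 stands apart at 4.95 in serum and 3.19 in 2i, and 28 of the 30 points lie above 0 in 2i against 18 to the right of 0 in serum.

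No gene listed as a partner of P450 enzymes passed with the shRNA in either medium, by limma or by voom, and at an unadjusted p under 0.05 each list had at most 1 gene in a medium. Of 19 tested genes for electron donors and heme supply none passed in any comparison, and the median log2 change was -0.06 in serum and -0.04 in 2i. Por, the reductase that feeds the microsomal P450 enzymes, had means of 214 and 349 normalised reads in the serum control and knockdown and 258 and 188 in the 2i control and knockdown. Of the receptors and regulators of P450 genes 15 were tested. The receptors of the Cyp2b and Cyp3a response in liver, Nr1i3 (CAR) and Nr1i2 (PXR), had means of at most 3.92 and 0.963 in any group. Ahr had means of 179 in the serum control and 248 in the 2i control (log2 change 0.35, adjusted p = 0.664), and its repressor and target Ahrr had 4.64 and 41.6 (log2 change 1.32, adjusted p = 0.182). Tiparp, from the same list, went the other way, with means of 1545 and 976 (log2 change -0.56, adjusted p = 0.418 by limma). Of the 15 tested, 6 had a negative change between these controls. Between the media, Rarg, a retinoic acid receptor, was lower in the 2i control (log2 change -2.76, adjusted p = 0.0147).

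Of the genes for conjugation and epoxide hydrolysis, which act on P450 products, 15 were tested. Between the media 4 were higher in the 2i control and 1 lower, against 1.73% and 1.88% of all tested genes. The higher ones were Ephx2, the soluble epoxide hydrolase (log2 change 2.15, adjusted p = 0.00483), the glutathione transferases Gstm1 (1.66, 0.0129) and Gstm2 (1.99, 0.0340, and 0.0664 by voom), and the quinone reductase Nqo1 (1.58, 0.0322), and the lower one was the sulfotransferase Sult4a1 (-1.36, 0.0313). Among 10 tested genes for retinoid handling and 10 tested partners of steroid and bile acid synthesis none passed between the media (3 and 2 at an unadjusted p under 0.05).

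Markers of other cell types were counted beside these results. The summed normalised reads of the 15 hepatocyte markers ranged from 73.8 to 107 in the serum control, 69.0 to 160.0 in the serum knockdown, 65.0 to 88.0 in the 2i control and 30.4 to 148 in the 2i knockdown, and none of the 4 tested passed by limma in any comparison. Apob passed by voom between the media (adjusted p = 0.0466, against 0.0542 by limma), with no read in the 2i control. Of 8 markers of steroid-producing cells Lhcgr and Mc2r had no read, and the 2 tested did not pass. Of 10 endoderm markers 8 were tested and none passed with the shRNA. Between the media 1 of them, Cubn, passed as lower in the 2i control by limma (log2 change -2.97, adjusted p = 0.00218). Its means were 133 in the serum control and 0 in the 2i control. In that comparison 7 of the 8 had a negative change. Of 10 fibroblast markers 5 were tested, and 1, Lum, rose in the 2i knockdown (log2 change 4.03, adjusted p = 0.000236). The fibroblast sum ranged from 76.6 to 99.997 in the 2i control and 163 to 830.1 in the 2i knockdown. Without Lum it ranged from 76.6 to 98.6 in the control and 60.8 to 94.5 in the knockdown, and the other 4 tested had negative changes there (median of the 5 tested -0.26), while Fap had no read and Col1a1, Col1a2, Col3a1 and Dcn had means of at most 9.98 in any group. The part of these cell types in the P450 results was not tested.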

How the data were processed

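The authors deposited 1 table of genes and 1 of repeat families, both with variance-stabilised values on a log2 scale for each library. Per the submitters' processing notes, the tools were Trim Galore (version 0.3.3), TopHat2 (version 2.0.9) and DESeq2, and the build was mm9. How reads were counted, on which annotation and strand, and what was done with multiply mapped reads was not given in the sources used here, which leaves near-identical copies and overlapping genes uncertain. The transformation was inverted, and 100% of values came out whole within 0.01 of a read. Depth was 4821181 to 15509401 gene reads per library.

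Genes were tested with limma 3.58.1 (R 4.3.3) on the deposited log2 values: 1 mean for each of 4 groups over 12 libraries, 8 residual degrees of freedom, a mean-variance trend, two-sided, Benjamini-Hochberg adjustment over the 14487 of 26061 genes that averaged 0.5 or more above the floor of the table (4.4522). This scale understates changes of low genes. Folds came from mean normalised reads. Against a group without reads they are bounds ("at least") against 3 reads over the group, and against 1 to 3 reads they are ratios with a 95% exact counting interval. Both cover counting error only.

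Knockdown was compared with control in serum and in 2i. Also tested were the difference of these changes and 2i against serum in control cells. Named were members called in any comparison, the 5 largest rises and 3 largest falls of each, the 10 most abundant per length, every member of a cluster with a called member, and Setdb1. Other values were chosen after they were seen. The members and lists were chosen with earlier results of these data known. A cluster is a run of members with at most 10 other protein-coding genes between neighbours. Gene order, exon lengths and promoter sequences came from GRCm38, not the files' build, so no other coordinates are given. Shared 50-base stretches were counted between the GENCODE transcripts of the members only.

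Whether replicate numbers pair libraries was checked by correlating deviations from group means. Same-numbered serum control and knockdown libraries correlated at 0.58, 0.23 and 0.51, and each control matched its own number best. In 2i the values were 0.46, 0.06 and 0.52, and between the controls of the media 0.23, -0.18 and 0.22. In both of these, replicate 2 matched another number best. The main fit used no pairing in either medium, and replicate blocks were run only as alternatives. The alternatives tried were other scalings, filters, variance models and fits, voom on recovered reads, replicate blocks and each library left out.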

Additional observations from a re-analysis of the deposited data

How the results depend on the processing

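Counts of called members were small, so single genes near the threshold moved them. In serum the count of 1 became 2 with no filter, with only the groups compared in the fit and with the replicate block within medium, and 3 without the 3 libraries of 2i with over 50% structural RNA, an alternative added after the data were seen, which leaves 1 knockdown library of 2i that is assumed to vary like the other groups. Leaving out 1 library gave 1 to 2. In 2i the count of 5 became 2 with a stricter filter, with only the groups compared and without those 3 libraries, and 3 with voom. The stricter filter left Cyp2a12, Cyp4a12b and Cyp2r1 untested, so its count does not show that their calls were lost. Leaving out 1 library gave 2 to 5. Between the controls of the media the count of 1 became 2 with quantile normalisation, no filter, no mean-variance trend, the replicate block and the replicate block within medium, and 0 with the stricter filter. Leaving out 1 library gave 1 to 2. The replicate block changed no other count by over 1.5 times, and the difference between the media called 0 members under every alternative run. The fit of only the groups compared was not run for that difference, which uses all groups. Of 652 alternatives over 31 changes of single genes, 609 kept their direction and side of the threshold, 24 lost a call and 13 gained one. The sign turned in 6: the change of Cyp1a1 in 2i became 0.057 with voom, lay between -0.40 and 0.24 when 1 library was left out (positive without 2i control replicate 1 and without 2i knockdown replicate 2 or 3) and became 0.78 without the 3 libraries, and the difference of Cyp2c55 became -0.10 with voom. Most of the 31 changes were not called over all libraries, so keeping their side of the threshold says little. The lost calls were those in 2i of Cyp2c55 (5 of 22 alternatives), Cyp4a12b (6 of 21) and Cyp2r1 (13 of 21). The gained calls were those of Cyp2c70 between the controls of the media (7 of 21) and of Cyp2c55 (4 of 22) and Cyp2b19 (2 of 21) in serum. The cause of these shifts was not tested. In all libraries together 22 members had under 10 reads, so their presence or absence in a library rests on few reads.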
